A study of Mus musculus with 11 samples.

Results

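The D cyclins Ccnd1, Ccnd2 and Ccnd3, the E cyclins Ccne1 and Ccne2, and the cyclin-dependent kinases Cdk2, Cdk4 and Cdk6 were followed across normal mouse brain and tumors of 2 glioma models. The members are the 8 rows of the expression table that carry these gene symbols, out of 24320 rows. Symbols alone picked these rows, without a measured value, while the set of genes was chosen with earlier results of these data known. The study made tumors with the Sleeping Beauty (SB) transposon system, which integrates plasmid-borne genes into host cells, and compared their expression with that of normal brain and with human glioblastoma subtypes. The 11 libraries of bulk RNA came from 3 normal brains, 4 NRAS tumors and 4 PDGFB tumors.

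For both models, plasmids for the SB transposase, firefly luciferase and the SV40 large T antigen (SV40LgT) went into the right lateral ventricle of neonatal mice. The NRAS model also received a constitutively active NRAS with the G12V substitution, labelled as overexpressed. The PDGFB model instead received PDGFB, a growth factor, also labelled as overexpressed. Tissue was taken at mid-stage of tumor growth, and the tumor region was dissected by its GFP fluorescence. The sources used here give neither the promoters that drive the plasmids nor the ages of the mice in days. Normal brain is labelled as a wild-type control, so all tumors carry large T and none of the controls is labelled as carrying it. In the titles, normal brain 1 is matched to NRAS tumor 2 and normal brain 3 to PDGFB tumor 1, with no word on what the match means. The series text names FVB mice, whereas the sample labels name B6 for 10 libraries and FVB for normal brain 3. The labels do not say that the libraries of a group come from separate animals, so p-values measure only the spread between these libraries.

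D cyclins bind CDK4 or CDK6, and these kinases phosphorylate the retinoblastoma protein Rb. Phosphorylated Rb releases E2F transcription factors, which switch on genes for DNA synthesis, and the E cyclins with CDK2 then drive the cell into S phase. D cyclin transcripts respond to growth factor and RAS-ERK signalling, which ties the cell cycle to signals from outside. SV40 large T binds Rb and its relatives directly and frees E2F without a cyclin. Amplification of CDK4, and less often of CDK6 or a D cyclin gene, is known from human gliomas.

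The promoters of 3 members are shown because these genes differed in how they moved in the tumors. Cdk4 and Cdk2 were far above normal brain in both models and their levels deviated together from library to library, while Ccne1 moved little. RefSeq start sites of build GRCm38.p6 (the mm10 genome) were available for 5 of the 8 members, namely Ccnd3, Ccne1, Cdk2, Cdk4 and Cdk6. The 250 bases before the start are printed in the direction of transcription, for Cdk4 at chr10:127063285-127063534 on the + strand, for Cdk2 at chr10:128705052-128705301 on the - strand and for Ccne1 at chr7:38107491-38107740 on the - strand. Capitals mark matches to an E2F motif or to CACGTG.
Cdk4: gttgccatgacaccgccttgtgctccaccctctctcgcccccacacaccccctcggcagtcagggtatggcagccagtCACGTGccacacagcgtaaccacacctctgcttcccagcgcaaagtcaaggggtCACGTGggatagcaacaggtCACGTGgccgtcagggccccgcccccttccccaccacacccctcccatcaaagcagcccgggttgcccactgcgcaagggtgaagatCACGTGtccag
Cdk2: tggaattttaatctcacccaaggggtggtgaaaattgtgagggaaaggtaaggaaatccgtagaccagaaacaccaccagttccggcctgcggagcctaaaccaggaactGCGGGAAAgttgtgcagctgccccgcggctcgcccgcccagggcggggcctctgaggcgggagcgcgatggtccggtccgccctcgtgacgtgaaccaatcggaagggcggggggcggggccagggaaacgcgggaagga
Ccne1: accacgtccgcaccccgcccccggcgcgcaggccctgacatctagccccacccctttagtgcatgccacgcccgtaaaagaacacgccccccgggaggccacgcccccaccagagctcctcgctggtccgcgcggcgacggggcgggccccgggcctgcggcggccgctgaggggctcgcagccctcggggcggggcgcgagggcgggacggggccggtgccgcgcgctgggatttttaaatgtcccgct
Motifs were searched on both strands from 250 bases before to 50 bases after a start. The E2F motif was taken as TTTCCCGC, TTTGGCGC, TTTCGCGC or TTTGCCGC, and 2.27% of all 32851 promoters of that length held a match. Cdk2 held 1, read on the other strand as GCGGGAAA with its first base at -140 from the start. Cdk4 held 4 copies of CACGTG, the E-box bound by MYC and related factors, with first bases at -172, -118, -98 and -11. CACGTG was present in 7.15% of all promoters, and 8 promoters (0.0244%) held 4 or more. Cdk6 held 1 copy, at -220. CACGTG was searched for after the Cdk4 sequence had been seen. The AP-1 motif TGANTCA (7.81% of promoters) and the cyclic AMP response element TGACGTCA (1.79%) had no match in the 5 genes, and Ccne1 and both start sites of Ccnd3 held none of the 4 motifs. A match is a run of letters, and no binding was measured. Only these exact letters were searched, so a promoter without a match may still hold a site.

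Values are FPKM, which corrects fragment counts for gene length and sequencing depth, so that levels can be compared between genes. Comparison between libraries also needs a shared scale, and size factors between the libraries ran from 0.997 to 1.01. Fold changes are on the log2(FPKM + 1) scale with their standard error (SE), which understates the change of genes near or below 1 FPKM. Adjusted p-values come from 1 limma fit over the 14491 genes with at least 1 FPKM in at least 3 libraries, with Benjamini-Hochberg adjustment and a threshold of 0.05. All 8 members passed this filter, but Cdk6 passed it only through the NRAS tumors. In NRAS tumors against normal brain, 8 of the 8 members were called and all were higher, where 62.3% of all tested genes were called, 32.0% higher and 30.3% lower. In PDGFB tumors against normal brain, 6 of 8 were called, all higher, against 58.5% of all tested genes called, 29.3% higher and 29.2% lower. The median log2 fold change of the 8 was 1.74 and 3.07 in these comparisons, beside 0.01 and 0.04 over all tested genes. These comparisons share their 3 control libraries.

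**Figure D1:**
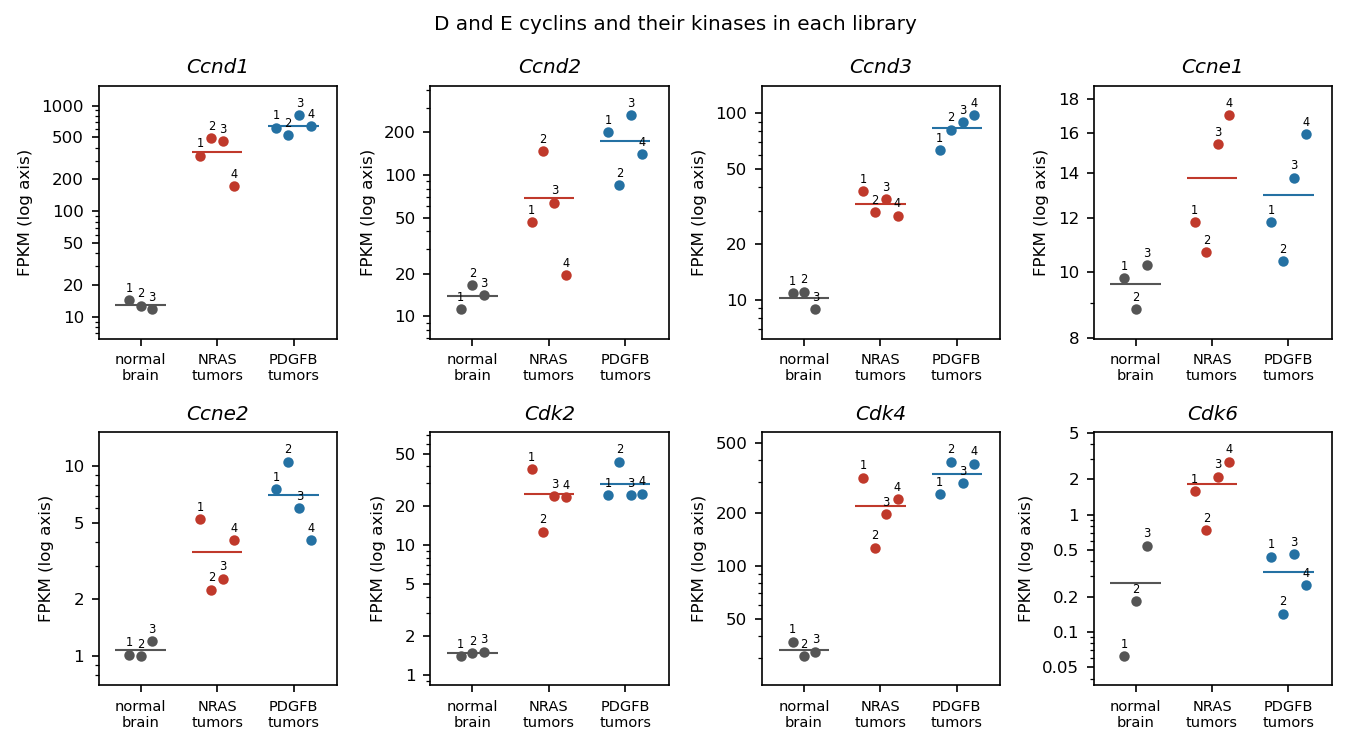
FPKM of each of the 8 genes (log axis, scaled separately per gene) in normal brain (grey), NRAS tumors (red) and PDGFB tumors (blue). Points are libraries with their replicate number, and the horizontal bar is the group mean. Ccnd1, Ccnd3, Cdk2 and Cdk4 lie far above normal brain in every tumor, Ccne1 spans only 8.80 to 17.0 FPKM over all libraries, and Cdk6 stands above normal brain in NRAS tumors only.

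Ccnd1 encodes cyclin D1, the D cyclin most often raised in human cancers, and lies at chr7:144929931-144939831. In normal brains 1 to 3 it was at 14.5, 12.8 and 11.8 FPKM. In NRAS tumors 1 to 4 it was at 337, 489, 460.4 and 173 FPKM, and in PDGFB tumors 1 to 4 at 619, 524, 813 and 636 FPKM. All 8 tumors were thus far above all normal brains, every PDGFB tumor was above every NRAS tumor, and NRAS tumor 4 was the lowest tumor. Group means were 13.003 ± 1.36 (SD, n = 3), 365 ± 144 (SD, n = 4) and 648 ± 121 FPKM (SD, n = 4), which is 28.1 times normal brain in NRAS tumors and 49.8 times in PDGFB tumors. Ccnd1 rose by 4.60 ± 0.31 (log2 ± SE, limma adjusted p = 3.08e-06) in NRAS tumors and by 5.52 ± 0.31 (limma adjusted p = 1.04e-06) in PDGFB tumors. Of the 14491 tested genes, 72 had a higher fold change than Ccnd1 in the NRAS comparison and 10 in the PDGFB comparison. By its mean, Ccnd1 stood at the 99.2 percentile of all rows in NRAS tumors and the 99.5 percentile in PDGFB tumors, against the 73.5 percentile in normal brain. Oraov1 (RefSeq symbol Lto1), a gene that overlaps Ccnd1, was at 8.99 to 13.1 FPKM over the 11 libraries and was not called in NRAS tumors against normal brain (limma adjusted p = 0.0652).

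Ccnd2 encodes cyclin D2, known from neural progenitors, and lies at chr6:127125162-127152188. It was at 11.2, 16.7 and 14.1 FPKM in the normal brains, at 46.3, 147, 63.6 and 19.6 FPKM in the NRAS tumors (1 to 4), and at 201, 85.1, 265 and 140.3 FPKM in the PDGFB tumors (1 to 4). The NRAS tumors spread widely, with NRAS tumor 4 just above the highest normal brain and NRAS tumor 2 inside the range of the PDGFB tumors. Ccnd2 rose by 1.90 ± 0.56 (limma adjusted p = 0.0123) in NRAS tumors and by 3.43 ± 0.56 (limma adjusted p = 0.00047) in PDGFB tumors. Its SE was the largest of the 8 genes. The means were 14.0 ± 2.75 FPKM (SD, n = 3) in normal brain, 69.2 ± 55.1 (SD, n = 4) in NRAS tumors and 173 ± 77.6 (SD, n = 4) in PDGFB tumors.

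Ccnd3 encodes cyclin D3, best known from lymphocyte development, and lies at chr17:47505051-47599689. It was at 10.9, 11.1 and 8.88 FPKM in normal brain, at 38.1, 29.5, 34.7 and 28.25 FPKM in NRAS tumors and at 63.4, 81.6, 89.9 and 97.8 FPKM in PDGFB tumors. The 3 groups formed 3 separate bands with no overlap. Ccnd3 rose by 1.57 ± 0.16 (limma adjusted p = 4.04e-05) in NRAS tumors and by 2.89 ± 0.16 (limma adjusted p = 1.04e-06) in PDGFB tumors. Bysl overlaps it in the annotation and was at 7.46 to 26.1 FPKM.

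The make-up of the D cyclins differed between normal brain and all tumors, beside their sum. The 3 genes together came to 37.2 ± 2.96 FPKM (SD, n = 3) in normal brain, 466.7 ± 192 (SD, n = 4) in NRAS tumors and 904 ± 197 (SD, n = 4) in PDGFB tumors. Ccnd1 made up 35.0% ± 4.16 (SD, n = 3) of that sum in normal brain, with a range of 31.5% to 39.6%. It made up 78.5% ± 3.77 (SD, n = 4) in NRAS tumors and 72.1% ± 2.88 (SD, n = 4) in PDGFB tumors, so that the ranges of 73.5% to 82.4% and 69.6% to 75.9% overlapped between the models. The log2 ratio of Ccnd1 to Ccnd2 within a library was -0.09 ± 0.40 (SD, n = 3) in normal brain, 2.65 ± 0.63 (SD, n = 4) in NRAS tumors and 2.01 ± 0.49 (SD, n = 4) in PDGFB tumors. Between the models it differed by 0.64, which a two-sided exact permutation test did not separate (p = 0.143, and 0.143 after adjustment over the 3 ratios tested).

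**Figure D2:**
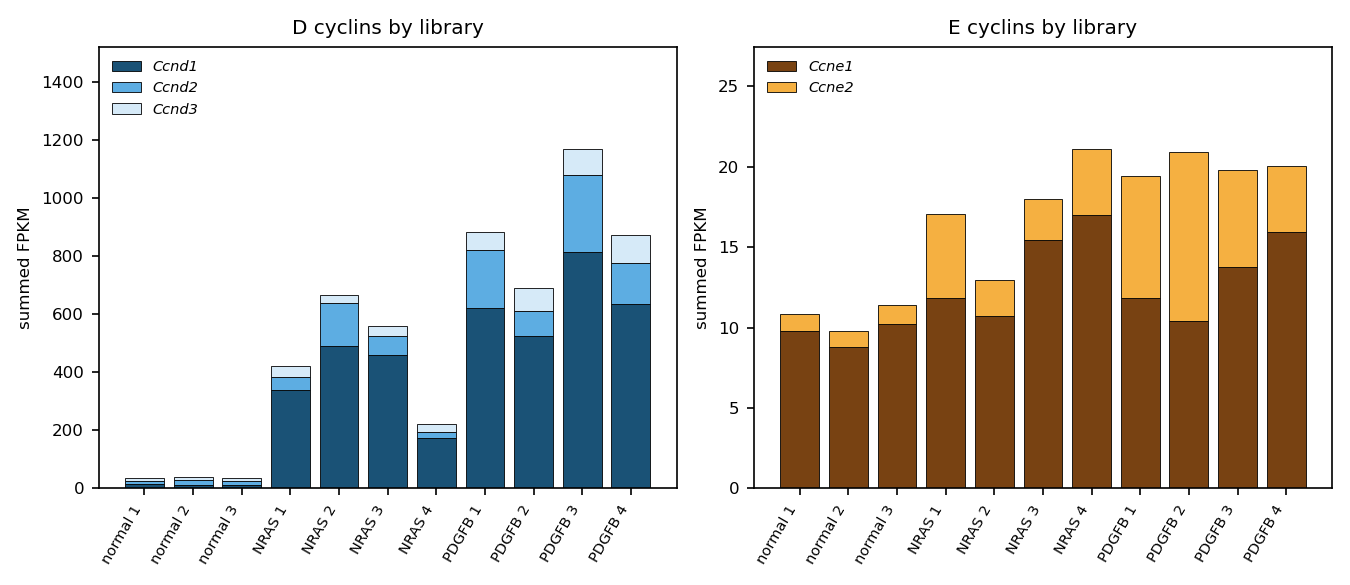
Summed FPKM of the D cyclins (left) and E cyclins (right) in each of the 11 libraries, with each bar divided into its genes. Ccnd1 is the largest piece of the D cyclin bar in every tumor, while the E cyclin bars stay far lower. Ccne2 is a larger share of the E cyclins in every tumor than in any normal brain, and its shares overlap between the models (14.2% to 30.8% in NRAS tumors and 20.4% to 50.4% in PDGFB tumors).

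Cdk4 encodes the main kinase partner of the D cyclins in most cells and lies at chr10:127063535-127067288. It was the most abundant of the 8 transcripts in normal brain, at 37.2, 30.8 and 32.6 FPKM. NRAS tumors 1 to 4 were at 318, 127, 197 and 240.5 FPKM and PDGFB tumors 1 to 4 at 257, 393, 297 and 383 FPKM. Every tumor was above every normal brain, and the models overlapped. Cdk4 rose by 2.61 ± 0.27 (limma adjusted p = 3.76e-05) in NRAS tumors and by 3.25 ± 0.27 (limma adjusted p = 8.77e-06) in PDGFB tumors, which is 6.58 and 9.92 times normal brain by the group means. Tspan31 overlaps only the last few bases of Cdk4 in the annotation, which end at 127067288, and was at 43.1 to 94.6 FPKM. The sources used here do not say whether reads were counted by strand.

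Cdk6, the other D cyclin kinase, lies at chr5:3341004-3531008 and was the lowest of the 8 genes in every group mean. It was at 0.0626, 0.183 and 0.544 FPKM in normal brain, at 1.59, 0.736, 2.10 and 2.82 FPKM in the NRAS tumors (1 to 4) and at 0.438, 0.143, 0.461 and 0.251 FPKM in the PDGFB tumors (1 to 4). The 4 NRAS tumors were above all other libraries, and normal brain and PDGFB tumors overlapped. Cdk6 rose by 1.12 ± 0.25 (limma adjusted p = 0.00301) in NRAS tumors. In PDGFB tumors the difference from normal brain was 0.08 ± 0.25 (limma adjusted p = 0.811). Since 3 NRAS tumors, no normal brain and no PDGFB tumor reached 1 FPKM, Cdk6 could enter the fit only where NRAS tumors were high. Its size also depends on the pseudocount, since with 0.1 in place of 1 the difference between NRAS tumors and normal brain was 2.49 (limma adjusted p = 0.0033), and over the 18 other settings the adjusted p ran from 0.000271 to 0.0637. Cdk6 was 0.168%, 0.590% and 1.64% of the summed FPKM of Cdk4 and Cdk6 in normal brains 1 to 3, 0.497% to 1.16% in NRAS tumors and 0.0365% to 0.170% in PDGFB tumors. The share in normal brain thus spread widely and overlapped with both models.

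The Cdk6 level in the 4 NRAS tumors ran in the same order as the summed FPKM of 10 monocyte and macrophage markers, which was 678, 206, 1038.9 and 2039.6 in NRAS tumors 1 to 4. The same markers summed to 18.0 to 20.0 FPKM in normal brain and 43.2 to 76.7 in PDGFB tumors. Of these 10 markers 9 rose in NRAS tumors against normal brain, 1 in PDGFB tumors, and 9 were higher in NRAS than in PDGFB tumors. In these comparisons and directions 32.0%, 29.3% and 14.3% of all tested genes were called. Among the markers, Ccr2, Ly6c2 and Arg1 passed the filter only through the NRAS tumors, where they were high, which limits their calls. T and NK cell markers, of which Cd3e, Cd3d and Gzmb were listed at 0 in all normal brains, also kept that order, with 51.7, 14.6, 124 and 324 summed FPKM in NRAS tumors 1 to 4. They came to 2.86 to 7.98 in normal brain and 0.947 to 2.51 in PDGFB tumors. B cell markers kept the Cdk6 order as well, at low sums of 3.15, 1.89, 7.67 and 8.62 FPKM in NRAS tumors 1 to 4. Their sums were 0.456 to 0.915 in normal brain and 0.307 to 2.84 in PDGFB tumors. The microglia and neutrophil lists did not keep the Cdk6 order. Microglia markers summed to 246, 286, 426 and 376 FPKM in NRAS tumors 1 to 4, and neutrophil markers to 36.7, 11.2, 68.5 and 35.4. Microglia markers were at 144 to 172 in normal brain and 97.7 to 222 in PDGFB tumors, and 5 of 8 were higher in NRAS than in PDGFB tumors. In bulk tissue a change in the number of cells of a type and a change in RNA per cell cannot be told apart, and the part of immune cells in the Cdk6 result was not tested.

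Ccne1 encodes cyclin E1, a partner of CDK2, and lies at chr7:38097984-38107490, where the annotation holds no overlapping gene. It was at 9.80, 8.80 and 10.2 FPKM in normal brain, at 11.8, 10.7, 15.4 and 17.0 FPKM in NRAS tumors and at 11.8, 10.4, 13.8 and 15.9 FPKM in PDGFB tumors. The tumors lay only just above normal brain, without overlap in either model. Among all tested genes, 33.2% were higher without overlap in NRAS tumors and 33.8% in PDGFB tumors. Ccne1 rose by 0.46 ± 0.18 (limma adjusted p = 0.0492) in NRAS tumors, which is 1.43 times by the group means. In PDGFB tumors the difference of 0.39 ± 0.18 was not called (limma adjusted p = 0.0926). The NRAS call was lost in 13 of 18 other settings (adjusted p 0.0186 to 0.351 over all 18), among them each setting without NRAS tumor 3 or 4 or without any of the 3 normal brains, with adjusted p between 0.0795 and 0.144.

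Ccne2 encodes cyclin E2, an E2F target, and lies at chr4:11190433-11204779. It was at 1.02, 1.01 and 1.20 FPKM in normal brain, at 5.26, 2.24, 2.56 and 4.09 FPKM in NRAS tumors and at 7.57, 10.6, 6.04 and 4.08 FPKM in PDGFB tumors. All tumors were above all normal brains, and NRAS tumors 1 and 4 were above PDGFB tumor 4. Ccne2 rose by 1.08 ± 0.29 (limma adjusted p = 0.00783) in NRAS tumors and by 1.89 ± 0.29 (limma adjusted p = 0.000336) in PDGFB tumors. Ints8 overlaps it in the annotation and was at 11.3 to 22.5 FPKM. Ccne1 made up 89.9% ± 0.574 (SD, n = 3) of the E cyclin FPKM in normal brain, 79.6% ± 7.20 (SD, n = 4) in NRAS tumors and 64.9% ± 12.8 (SD, n = 4) in PDGFB tumors. The 2 E cyclins together reached 10.7 ± 0.814 FPKM in normal brain (SD, n = 3), 17.3 ± 3.37 in NRAS tumors (SD, n = 4) and 20.05 ± 0.651 in PDGFB tumors (SD, n = 4), far less than the D cyclins.

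Cdk2 encodes the kinase partner of the E and A cyclins and lies at chr10:128697938-128705051. It was at 1.41, 1.48 and 1.52 FPKM in normal brain, a narrow range. NRAS tumors 1 to 4 were at 37.9, 12.7, 23.7 and 23.3 FPKM and PDGFB tumors 1 to 4 at 24.0, 43.6, 24.2 and 24.8 FPKM. Every tumor was far above every normal brain, and the ranges of the models overlapped. Cdk2 rose by 3.27 ± 0.31 (limma adjusted p = 2.22e-05) in NRAS tumors and by 3.56 ± 0.31 (limma adjusted p = 1.18e-05) in PDGFB tumors, 16.6 and 19.8 times normal brain by the group means. Among the 8 genes, this was the largest change after Ccnd1 in both comparisons, and 298 and 144 tested genes had a higher fold change. Pmel spans all of Cdk2 in the annotation and was at 0.0734 to 1.88 FPKM.

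These changes reordered the 8 transcripts. In normal brain the order of mean levels was Cdk4, Ccnd2, Ccnd1, Ccnd3, Ccne1, Cdk2, Ccne2 and Cdk6, in which Ccnd2 and Ccnd1 overlapped between libraries, as did Ccnd3 and Ccne1. In both tumor models it was Ccnd1, Cdk4, Ccnd2, Ccnd3, Cdk2, Ccne1, Ccne2 and Cdk6. Of the neighbours in this order, Cdk4 overlapped with Ccnd2 and Ccnd2 with Ccnd3 in both models. Ccnd1 and Cdk4, Ccnd3 and Cdk2, Cdk2 and Ccne1, and Ccne2 and Cdk6 overlapped in NRAS tumors alone, and Ccne1 and Ccne2 in PDGFB tumors alone. These overlaps are between ranges over different libraries. Within a library, Cdk2 was below Ccne1 in every normal brain and above it in every tumor. In NRAS tumor 2 the values were 12.7 and 10.7 FPKM. Some tumors broke the order within the library. NRAS tumor 4 had Cdk4 above Ccnd1 (240.5 against 173 FPKM) and Ccnd3 above Ccnd2 (28.25 against 19.6). NRAS tumor 2 had Ccnd2 above Cdk4 (147 against 127), and PDGFB tumor 2 had Ccne2 above Ccne1 (10.6 against 10.4).

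**Figure D3:**
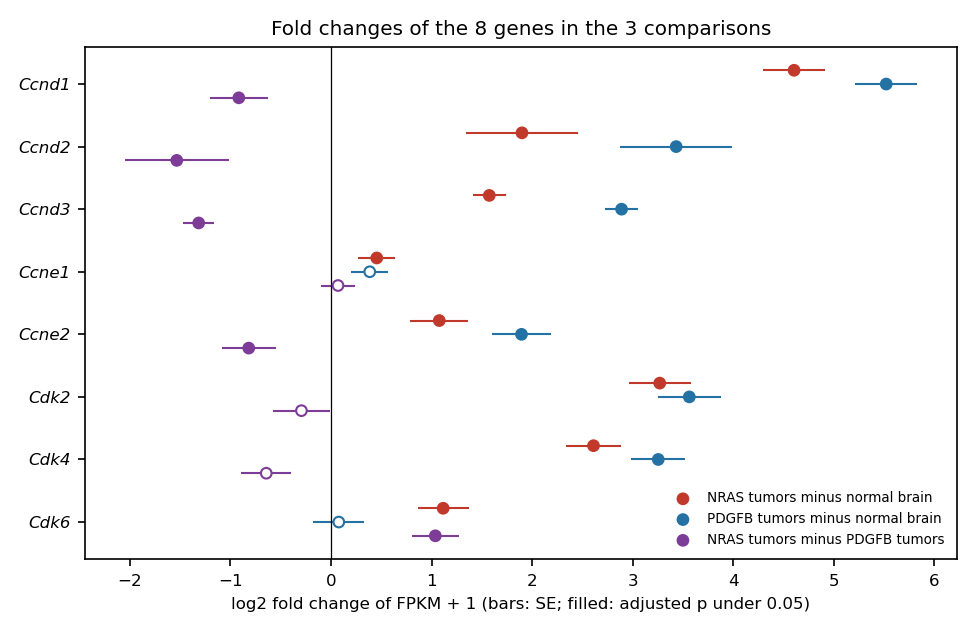
Log2 fold changes of FPKM + 1 (horizontal axis) of the 8 genes, with SE bars, in the 3 comparisons. Filled points have an adjusted p under 0.05. All NRAS points (red) are filled and right of 0, Ccne1 and Cdk6 are open in the PDGFB comparison (blue), and between the models (purple) 4 filled points lie left of 0 and Cdk6 lies right of 0.

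The models were then compared with each other. Of the 8 genes, 5 were called between NRAS and PDGFB tumors, where 26.6% of all tested genes were called. The 3 D cyclins and Ccne2 were lower in NRAS tumors, a direction called for 12.2% of tested genes, and Cdk6 was higher, a direction called for 14.3%. Ccnd3 was 2.55 times as high in PDGFB as in NRAS tumors by the group means, and its difference (NRAS minus PDGFB) was -1.32 ± 0.15 (limma adjusted p = 0.000402). Cdk6 was 5.61 times as high in NRAS as in PDGFB tumors, with a difference of 1.04 ± 0.23 (limma adjusted p = 0.0086), or 2.12 with a pseudocount of 0.1. The calls of Ccnd3 and Cdk6 held in all 19 other settings, with adjusted p of 0.000216 to 0.00351 and of 0.000863 to 0.0392. Cdk6 passed the filter only through the NRAS tumors, where it was high, which limits its call, and with no filter its adjusted p by limma was 0.0111. Neither gene overlapped between the models, as was so for 11.6% of tested genes that were lower and 12.9% that were higher in NRAS tumors.

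The other 3 calls between the models were close to the threshold. Ccnd1 differed by -0.92 ± 0.29 (limma adjusted p = 0.0364) without overlap, and its call was lost in 8 of 19 other settings (adjusted p 0.0156 to 0.102). Leaving out NRAS tumor 1 or PDGFB tumor 1, 3 or 4 ended it, at adjusted p between 0.0584 and 0.102, and without NRAS tumor 4 the difference was -0.60 (limma adjusted p = 0.0462). Ccnd2 differed by -1.53 ± 0.52 (limma adjusted p = 0.0489) with overlap, and the call was lost in 13 of 19 settings (adjusted p 0.00564 to 0.131). It did not hold without NRAS tumor 1, 3 or 4 or PDGFB tumor 1, 3 or 4, at adjusted p between 0.0721 and 0.131, or when replicate numbers entered as a block (adjusted p = 0.0631). Ccne2 differed by -0.82 ± 0.27 (limma adjusted p = 0.0441) with overlap, and the call was lost in 13 of 19 settings (adjusted p 0.0172 to 0.122). These include leaving out NRAS tumor 2, 3 or 4 or PDGFB tumor 1, 2 or 3, at adjusted p between 0.0618 and 0.112, and the replicate block (adjusted p = 0.0819).

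Cdk4, Cdk2 and Ccne1 were not called between the models. The Cdk4 difference was -0.64 ± 0.25 (limma adjusted p = 0.0794), and it passed in 3 of 19 other settings (adjusted p 0.0205 to 0.213) including the one without NRAS tumor 1, where it was -0.84 (limma adjusted p = 0.0205). The Cdk2 difference was -0.29 ± 0.29 (limma adjusted p = 0.49) and that of Ccne1 0.07 ± 0.17 (limma adjusted p = 0.798). Within a library, the log2 ratio of Cdk4 to Cdk6 was 7.51 ± 1.66 (SD, n = 3) in normal brain, 7.01 ± 0.62 (SD, n = 4) in NRAS tumors and 10.1 ± 1.06 (SD, n = 4) in PDGFB tumors. The models differed in it by -3.12 without overlap, at an exact permutation p of 0.0286, the smallest that 4 against 4 libraries allow, and 0.0857 after adjustment over the 3 ratios. Cdk6 was under 1 FPKM in every PDGFB tumor. With a pseudocount of 1 the difference was -1.68 (exact permutation p = 0.0286, adjusted 0.0857). The ratio of Ccne1 to Ccne2 was 2.02 ± 0.61 (SD, n = 4) in NRAS tumors and 0.94 ± 0.84 (SD, n = 4) in PDGFB tumors, a difference of 1.07 (exact permutation p = 0.0857, adjusted 0.129).

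Library titles carry numbers from 1834 to 1838 for the normal brains and NRAS tumors 1 and 2, and from 2038 to 2046 for NRAS tumors 3 and 4 and all PDGFB tumors. The labels do not say what these series of numbers mark. Within the lower series, NRAS tumors 1 and 2 against normal brain gave 4.87 for Ccnd1, 2.50 for Ccnd2, 1.62 for Ccnd3, 1.12 for Ccne2, 3.23 for Cdk2 and 2.55 for Cdk4, all called. Ccne1 with 0.21 (limma adjusted p = 0.289) and Cdk6 with 0.77 (limma adjusted p = 0.0637) were not called there. Within the higher series, NRAS tumors 3 and 4 against the PDGFB tumors gave -2.13 for Ccnd2, -1.36 for Ccnd3 and 1.39 for Cdk6, all called, while Ccnd1 with -1.18 (limma adjusted p = 0.0725) and Ccne2 with -0.86 (limma adjusted p = 0.122) were not. No series holds both PDGFB tumors and normal brain, so for that comparison the series and the group cannot be told apart except through the NRAS tumors. With the series as a term in the fit, the 6 members called in PDGFB tumors against normal brain were still called, while the count over all genes fell from 8470 to 4768.

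The tumors of a model were not alike, and some of the 8 genes deviated together. Deviations of log2(FPKM + 1) from the group mean, over all 11 libraries, correlated at r = 0.87 between Ccnd1 and Ccnd2 and at r = 0.86 between Cdk2 and Cdk4. They correlated at r = 0.78 between Ccne2 and Cdk2, and at -0.76 between Ccnd2 and Cdk4. These values come from few libraries that also share their scaling, and they serve as a description. NRAS tumor 2 had the highest Ccnd1 and Ccnd2 of the NRAS tumors and the lowest Cdk2, Cdk4 and Ccne2. It also had the most summed FPKM of neuron markers in any tumor, 1485, where the other tumors had 268 to 909 and normal brain 3092 to 3503. NRAS tumor 4 had the lowest Ccnd1 and Ccnd2 and the highest Ccne1 and Cdk6. It also had the lowest sum of oligodendrocyte progenitor markers of any tumor, 175 FPKM, where NRAS tumors 1 to 3 had 449 to 840.2, PDGFB tumors 1578 to 1809 and normal brain 161 to 233.

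**Figure D4:**
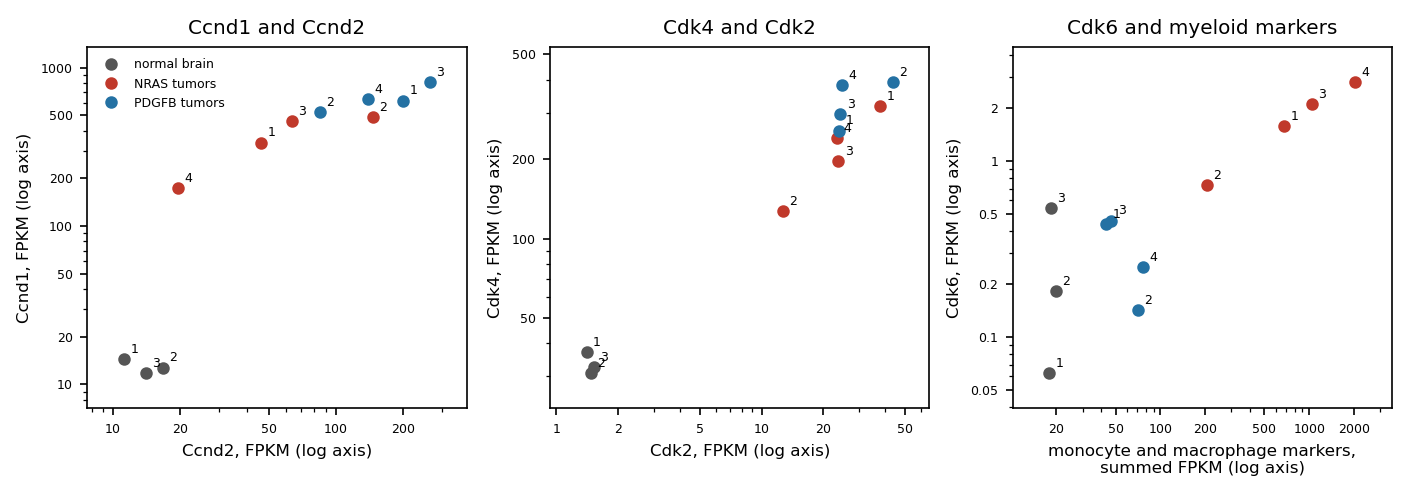
Levels in each library (log axes) of Ccnd1 against Ccnd2, Cdk4 against Cdk2, and Cdk6 against the summed FPKM of 10 monocyte and macrophage markers. Points are libraries of normal brain (grey), NRAS tumors (red) and PDGFB tumors (blue) with their replicate number. NRAS tumor 4 is the lowest tumor in the Ccnd1 panel, NRAS tumor 2 the lowest tumor in the Cdk4 panel, and in the right panel the NRAS tumors lie apart at 206 to 2039.6 FPKM of markers.

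Markers of other cells moved with the groups. Of 7 oligodendrocyte progenitor markers, 4 rose in NRAS tumors and 6 in PDGFB tumors, and 6 were lower in NRAS than in PDGFB tumors, the direction of the D cyclins and Ccne2. Of 12 neuron markers, 11 fell in NRAS tumors and 12 in PDGFB tumors. All 8 markers of proliferating cells rose in both models, from 3.49 to 5.56 summed FPKM in normal brain to 113 to 394 in NRAS tumors and 388 to 584 in PDGFB tumors, and 3 of them (Mki67, Cenpf and Aurkb) were lower in NRAS than in PDGFB tumors. Their part in the levels of the 8 genes was not tested. Normal brain 3, the library labelled FVB, was the highest of the controls for Ccne1, Ccne2, Cdk2 and Cdk6 and the lowest for Ccnd1 and Ccnd3, and the 6 calls shared by both models held without it.

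The genes most like each D cyclin across the 11 libraries were found by Pearson correlation of log2(FPKM + 1) among 10350 tested genes with a mean of at least 5 FPKM. For Ccnd1 they were C1qtnf6 (r = 0.992), Nt5dc2 (r = 0.989) and Vps36 (r = 0.989). For Ccnd2 they were Specc1 (r = 0.974), Chst11 (r = 0.972) and Emid1 (r = 0.970). For Ccnd3 they were Pnrc2 (r = 0.994), Cela1 (r = 0.994) and Nol7 (r = 0.989). These values include the differences between the 3 groups. C1qtnf6, for example, was at 1.24 ± 0.303 FPKM in normal brain (SD, n = 3), 15.0 ± 3.56 in NRAS tumors (SD, n = 4) and 21.0 ± 3.63 in PDGFB tumors (SD, n = 4).

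The inhibitors of these kinases were also high in the tumors. Of 7 inhibitors of the INK4 and CIP/KIP families, 5 rose and 1 (Cdkn2d) fell in NRAS tumors, and 5 rose in PDGFB tumors, with median log2 fold changes of 3.26 and 3.78. Of all tested genes, 32.0% rose and 30.3% fell in NRAS tumors, and 29.3% rose in PDGFB tumors. Cdkn2a, which encodes the CDK4/6 inhibitor p16INK4a and the p53 activator ARF, rose by 7.83 (limma adjusted p = 1.7e-07) and by 7.66 (limma adjusted p = 3.55e-07), from 0.172 ± 0.215 FPKM (SD, n = 3) to 287 ± 134 and 242 ± 79.6 (SD, n = 4 each). Its neighbour Cdkn2b, encoding p15INK4b, rose by 5.32 and 5.36 (limma adjusted p = 5.74e-06 and 4.74e-06). Cdkn2a and Cdkn2b were under 1 FPKM in all normal brains and passed the filter only through the tumors, which limits their calls. Between the models Cdkn2c, Cdkn2d and Cdkn1b were lower in NRAS tumors, a direction called for 12.2% of all tested genes. Cdkn2c, encoding p18INK4c, differed by -1.08 (limma adjusted p = 0.0065).

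Downstream of the kinases, 8 of 13 pocket protein and E2F genes rose in NRAS tumors and 10 in PDGFB tumors, with none lower. The shares of all tested genes that rose were 32.0% and 29.3%. The atypical E2F gene E2f8 rose by 3.19 and 2.88 (limma adjusted p = 0.000349 and 0.000574), and Rbl1, which encodes the Rb relative p107, by 2.81 and 3.08 (limma adjusted p = 0.000221 and 0.000116). All 22 genes of origin licensing and S phase rose in both models, with medians of 2.87 and 3.49. Mcm6, a subunit of the replicative helicase, rose by 4.66 and 5.24 (limma adjusted p = 8.43e-06 and 4.05e-06), and Rrm2, a ribonucleotide reductase subunit, by 4.65 and 5.32 (limma adjusted p = 2.63e-06 and 1.04e-06). Between the models 1 of the 22, Rrm1, was called, and it was lower in NRAS tumors, a direction called for 12.2% of all tested genes. E2f2, E2f7, E2f8, Rbl1, Mcm10, Cdc6, Cdt1, Orc1, Gins1, Tyms and Tk1 were under 1 FPKM in all normal brains. These genes passed the filter only through the tumors, which limits their calls.

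Of the later cell cycle, 5 of 6 A and B cyclin and Cdk1 genes rose in each model, with medians of 3.69 and 4.60. Cdk1, the mitotic kinase, rose by 4.98 and 5.44 (limma adjusted p = 6.26e-06 and 3.62e-06) and Ccnb1, its B cyclin, by 4.81 and 5.999 (limma adjusted p = 3.86e-06 and 1.04e-06). The exception Ccna1 fell by 0.58 in NRAS tumors (limma adjusted p = 0.0103). Among 8 genes for the CDK-activating kinase, the CDC25 phosphatases and the inhibitory kinases, 4 rose and 1 (Ccnh) fell in NRAS tumors and 6 rose in PDGFB tumors. Cdc25c, a phosphatase that activates CDK1, rose by 2.61 and 3.80 (limma adjusted p = 0.000119 and 1.08e-05). Over all tested genes 32.0% rose and 30.3% fell in NRAS tumors, and 29.3% rose in PDGFB tumors. Cdk1, Ccnb1 and Cdc25c were under 1 FPKM in all normal brains and passed the filter only through the tumors, which limits their calls.

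Of 16 genes for turnover of D and E cyclins, 4 were higher and 5 lower in each model, near the shares over all tested genes (32.0% higher and 30.3% lower in NRAS tumors, 29.3% and 29.2% in PDGFB tumors). Cks2 and Cks1b, small CDK-binding proteins, rose by 4.41 and 4.15 in NRAS tumors (limma adjusted p = 4.92e-06 and 3.17e-05) and by 5.03 and 3.98 in PDGFB tumors (limma adjusted p = 2.2e-06 and 3.79e-05). The same 5 fell in both models: Fbxw7, Ambra1, Fbxo31, Btrc and Usp2. Fbxw7, the ubiquitin ligase receptor for cyclin E, fell by 1.51 and 1.96 (limma adjusted p = 0.00331 and 0.00077), and Ambra1, the receptor for D cyclins, fell by 0.57 and 0.46 (limma adjusted p = 0.0013 and 0.00432). Both were named after their values were seen. Neuron markers fell in the same tumors, and their part in these values was not tested.

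Upstream, 13 of 17 genes of RAS-ERK output rose in NRAS tumors and 14 in PDGFB tumors, and none fell. Of all tested genes, 32.0% rose in NRAS tumors and 29.3% in PDGFB tumors. Myc rose by 3.52 and 3.97 (limma adjusted p = 1.2e-05 and 5.35e-06), and Spry4, a feedback inhibitor of the pathway, by 3.09 and 3.44 (limma adjusted p = 3.58e-06 and 1.8e-06). Between the models 4 of the 17 were higher and 4 lower in NRAS tumors, directions called for 14.3% and 12.2% of all tested genes. Fosl1, an AP-1 factor, was at 4.70 ± 1.69 FPKM in NRAS tumors (SD, n = 4) and 0.258 ± 0.145 in PDGFB tumors (SD, n = 4), a difference of 2.13 (limma adjusted p = 0.000199), and was listed at 0 in all normal brains. Like Cdk6, Fosl1 passed the filter only through the NRAS tumors, where it was high. Dusp5, an ERK phosphatase, differed by 1.999 (limma adjusted p = 0.000128). Fosl1, Dusp5, Dusp4 (1.48) and Ier3 (1.08) were higher in NRAS tumors, against the direction of the D cyclins. Spry1 (-0.97), Etv4 (-1.17), Egr1 (-1.13) and Phlda1 (-1.16) were lower there, the direction of the D cyclins.

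Of 21 cyclin and CDK genes with roles outside the cell cycle, 5 rose and 9 fell in NRAS tumors, and 4 rose and 9 fell in PDGFB tumors, with medians of -0.21 and -0.29. Over all tested genes 32.0% were higher and 30.3% lower in NRAS tumors, and 29.3% and 29.2% in PDGFB tumors. Cdk5r1 and Cdk5r2, the neuronal activators of CDK5, fell by 2.26 and 2.25 in NRAS tumors (limma adjusted p = 0.000651 and 0.00854). In PDGFB tumors they fell by 2.15 and 2.45 (limma adjusted p = 0.000812 and 0.00561). Cdk18 had the largest change of the list in PDGFB tumors, a fall of 2.50 (limma adjusted p = 3.45e-05), and fell by 1.48 in NRAS tumors (limma adjusted p = 0.000734). These lists were drawn up with earlier results of these data known, and their counts are a description.

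**Figure D5:**
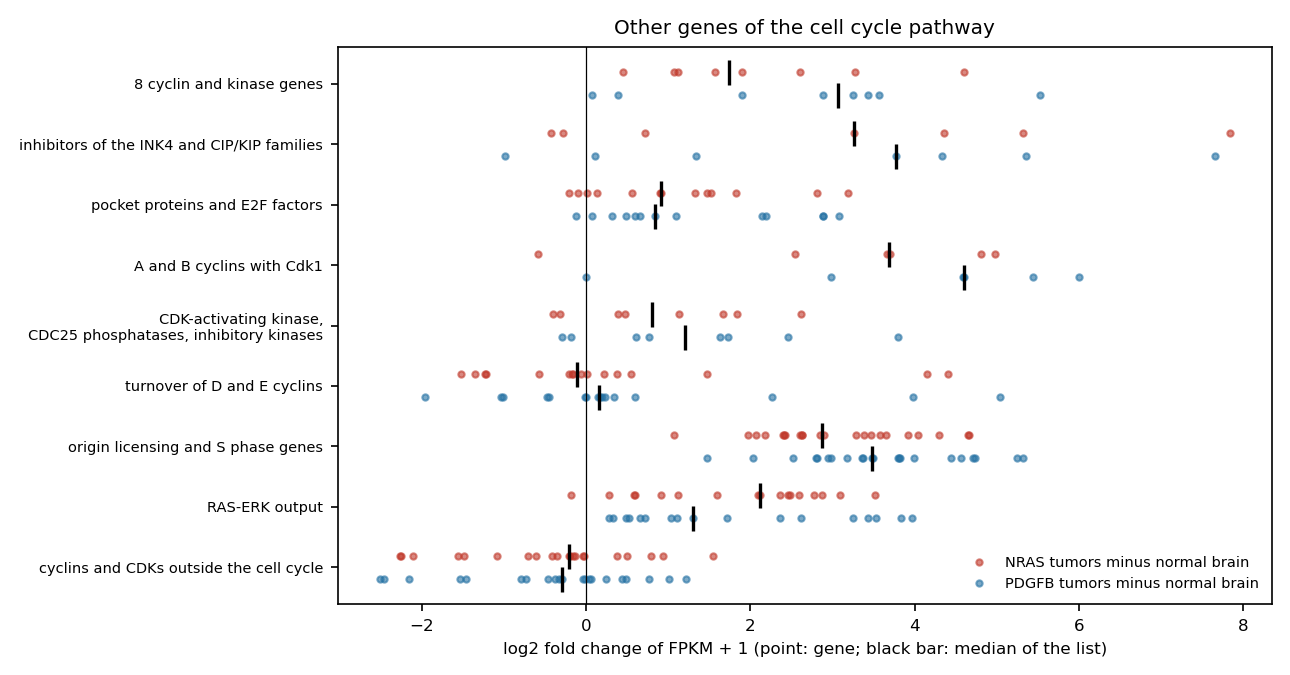
Log2 fold changes of FPKM + 1 against normal brain (horizontal axis) for each tested gene (points) of the 8 members and of 8 lists of related genes, in NRAS tumors (red) and PDGFB tumors (blue). Black bars are list medians. The origin licensing and S phase list lies wholly right of 0, while the list of cyclins and CDKs outside the cell cycle has medians of -0.21 and -0.29.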

How the data were processed

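RNA from 11 libraries was sequenced after column extraction and standard Illumina library preparation, as the labels' protocols state. The expression table deposited by the authors was read here as FPKM. The unit is inferred, since no label or header names it, from Cufflinks 2.2.1, which stands beside TopHat2 2.0.13 and the mm10 build in the submitters' processing notes. The sources used here do not give their settings, the annotation or the use of strand. Between-library size factors computed from the table ran from 0.997 to 1.01, so the deposited values already share a scale.

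Of 24347 rows, 27 with a date in place of a gene name were left out, and 24320 remained. Small RNA rows held 10.5% to 42.8% of a library's FPKM sum. Read counts were not used. Low values, as multiples of what 1 read is worth, gave relative depths of 0.776 to 1, and 12705 to 13923 genes reached 1 FPKM per library. Relative depths give no absolute number, so how many reads low genes such as Cdk6 rest on is not known.

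One limma 3.58.1 fit (R 4.3.3, lmFit with a mean per group, contrasts.fit, eBayes with trend) on log2(FPKM + 1) used all 11 libraries and 14491 genes, those that reached 1 FPKM in 3 or more libraries. Its p-values were two-sided and adjusted by Benjamini-Hochberg over these genes. Log2 ratios within a library were compared by exact permutation tests (scipy 1.17.1) with adjustment over 3 ratios. The fit was also run on simulated data with independent noise and few changed genes. Such data check the calculation and do not show how the fit performs on these libraries. Positions and promoters are from RefSeq GRCm38.p6.

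The members and lists were chosen with earlier results of these data known. Named are all 8 members, the 3 genes most like each D cyclin, and per related list at most the 2 with the largest change in a comparison, besides those said to be chosen later and the few called against their list. Also named are the inhibitor and RAS-ERK genes called between the models, and genes said to have passed the filter only through tumors. Alternatives were another pseudocount, other filters, scalings and moderation, the title number series, a replicate block, only the groups compared, and leaving out each library. The labels do not say that the replicate numbers pair libraries. Deviations correlated at -0.50 to 0.16 between same-numbered libraries, which cannot settle pairing with so few libraries per group. The matches given in the titles join different replicate numbers and were not tested.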

Additional observations from a re-analysis of the deposited data

Results flagged for a closer look

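Cdk2 in PDGFB tumor 2, at 43.6 FPKM, stood apart from the other 3 PDGFB tumors by more than Dixon's 95% limit. It was 1 of 16 groups of 4 tumors examined (8 genes in 2 models), and chance alone passes about 1 in 20 such groups.

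The change against normal brain differed between the models for 5 genes, tested as NRAS minus PDGFB tumors in the limma fit. Ccnd1 (-0.92), Ccnd2 (-1.53), Ccnd3 (-1.32) and Ccne2 (-0.82) changed less in NRAS tumors, and Cdk6 (1.04) changed more, all as log2 differences. With normal brain as the shared control, this test is that of the models against each other. The Ccnd1, Ccnd2 and Ccne2 differences depend on single libraries, as given with their values.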

How the results depend on the processing

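Over 24 fold changes of the 8 genes and 432 values under other settings, 376 kept their direction and side of the threshold, 48 no longer passed, 3 newly passed and 5 changed sign. Against normal brain, Ccnd1, Ccnd2, Ccnd3, Ccne2, Cdk2 and Cdk4 stayed called in both models under every setting run. Sign changes touched only differences that were not called. Ccne1 in PDGFB tumors against normal brain became -0.10, and Cdk6 -0.62, with the title number series in the fit. Leaving out 1 library gave -0.0343 to 0.174 for Ccne1 between the models (negative without NRAS tumor 4, and -0.0239 without PDGFB tumor 2) and -0.0377 to 0.232 for Cdk6 in PDGFB tumors against normal brain (negative without normal brain 1). The 5 members called between the models became 3 with a filter of 0.1 FPKM, 2 with no filter, 2 with only the 2 groups compared, 3 within the higher title number series and 2 to 4 with 1 library left out. With the series in the fit, 4768 genes in place of 8470 were called in PDGFB tumors against normal brain. The cause was not tested. With the replicate number as a block, 3 members were called between the models, and no call against normal brain changed for the 8 genes. Without small RNA rows the median log2 change of all tested genes in NRAS tumors against normal brain moved from 0.01 to -0.12. With that scaling Ccne1 was at 0.32 in NRAS tumors and lost its call (limma adjusted p = 0.1). The exact permutation test of a ratio cannot go below 0.0286 with 4 against 4 libraries or 0.0571 with 3 against 4, and no ratio had an adjusted p under the threshold in any setting run.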
